A study of Mus musculus with 2 samples.

Results

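Among the cells of the early mouse rib callus, a set of fibroblasts was picked out by its joint level of *Sfrp4*, *Eln*, *Col14a1*, *Cilp* and *Sfrp1*. These Sfrp4 Eln Col14a1 fibroblasts numbered 2050 of the 21259 cell barcodes, 1232 of 10747 in the control library and 818 of 10512 in the *Smo* cKO library. A cell was first gated as connective if it had at least 1000 UMIs (unique molecular identifiers, each standing for 1 captured RNA molecule), under 10% mitochondrial UMIs, at least 1% of its UMIs from *Col1a1*, *Col1a2* and *Col3a1*, no UMI of *Ptprc*, *Pecam1*, *Myog* or *Rgs5*, and fewer than 5 UMIs of the proliferation genes *Birc5*, *Cdk1*, *Ube2c* and *Ccna2*. Over the 7209 gated cells, log-scaled levels were converted to z-scores and averaged over 3 sets of 5 genes. A cell was kept when the score of the set above was the highest of the 3 and over 0.3. The competing sets were *Tnc*, *Inhba*, *Aldh1a3*, *Timp1* and *Loxl2* (Tnc Inhba cells, 1900) and *Fmod*, *Acan*, *Col11a1*, *Tnn* and *Comp* (Fmod Acan cells, 1153). In the remaining 2106 cells no set passed 0.3.

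The study asked by scRNAseq how the callus changes when cells of the Sox9+ lineage cannot receive a Hedgehog (Hh) signal, since *Smo* encodes the membrane protein that passes this signal into the cell. Both groups carried Sox9:CreER and the R26:tdTomato reporter and received 3 tamoxifen injections before surgery. Controls were *Smo* flox/+ and therefore also carried 1 floxed allele, while *Smo* cKO animals were *Smo* flox/flox. A 3 mm segment of rib was resected from mice aged 8 to 12 weeks, and calluses of 3 animals per genotype were pooled into 1 library at 4 days post injury (dpi). Deletion is limited to cells in which the *Sox9* transgene was active, so a fibroblast in the *Smo* cKO library may be of either lineage. With 1 library per genotype there was no replicate check of any genotype difference: no test was run, and the 95% intervals given below cover counting error alone.

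Secreted frizzled-related proteins such as SFRP4 and SFRP1 bind Wnt ligands outside the cell and limit their signaling. Elastin, encoded by *Eln*, forms the core of elastic fibres, *Col14a1* encodes a collagen that sits on the surface of collagen fibrils, and *Cilp* encodes a matrix protein known to bind TGF-beta. Genes of this kind are typical of the connective sheaths around vessels, muscle and bone, where fibroblasts keep the matrix extensible and sense injury.

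Before the levels are compared, 2 features of the libraries need to be given. In all, 613 barcode sequences occurred in both libraries, and among the fibroblasts 10 control cells and 19 *Smo* cKO cells carried such a barcode. None was a fibroblast of this kind in both. Which library the RNA behind a shared barcode came from was not tested, so the genotype of these cells is in doubt. Leaving out cells with shared barcodes changed the number of genes higher and lower by 2-fold or more in the *Smo* cKO fibroblasts from 28 and 20 to 27 and 17. Control fibroblasts had a median of 7686 UMIs (10498881 in all) and *Smo* cKO fibroblasts a median of 8853.5 (8105971 in all). The *Smo* cKO cells were thus the deeper ones, with medians of 2400.5 detected genes against 2104. More than 2000 genes were detected in 57.8% of control and 70.9% of *Smo* cKO fibroblasts, and the quality filter described in the study's methods removed such cells. Most of the fibroblasts given here therefore lie outside that filter, and values from cells with at most 2000 detected genes (359 control and 157 *Smo* cKO fibroblasts after the scores were recomputed) are given beside the results. These are called gene-limited cells.

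The fibroblasts made up 28.8% (95% exact binomial interval, 27.5 to 30.2) of 4272 gated control cells and 27.9% (26.2 to 29.5) of 2937 gated *Smo* cKO cells. *Smo* cKO minus control came to -0.99 percentage points, and the interval of -3.09 to 1.14 includes 0. Around them the makeup was less even, with Tnc Inhba cells at 22.9% (control) and 31.3% (*Smo* cKO) and cells without any set above 0.3 at 32.7% and 24.1%. The fibroblast difference moved with how the cells were chosen, and in 6 of the alternatives its interval excluded 0. It was -5.99 points (-10.2 to -1.58; 31.2% and 25.2%) in gene-limited cells, -3.26 (-5.44 to -1.06) at a score cut of 0.15, -5.09 (-7.23 to -2.94) without *Cilp* in the set and -2.58 (-4.69 to -0.45) without *Eln*. It was above 0 without *Col14a1*, at 2.45 points (0.38 to 4.53), and without cells with a macrophage marker UMI, at 4.11 points (0.22 to 8.07).

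**Figure D1:**
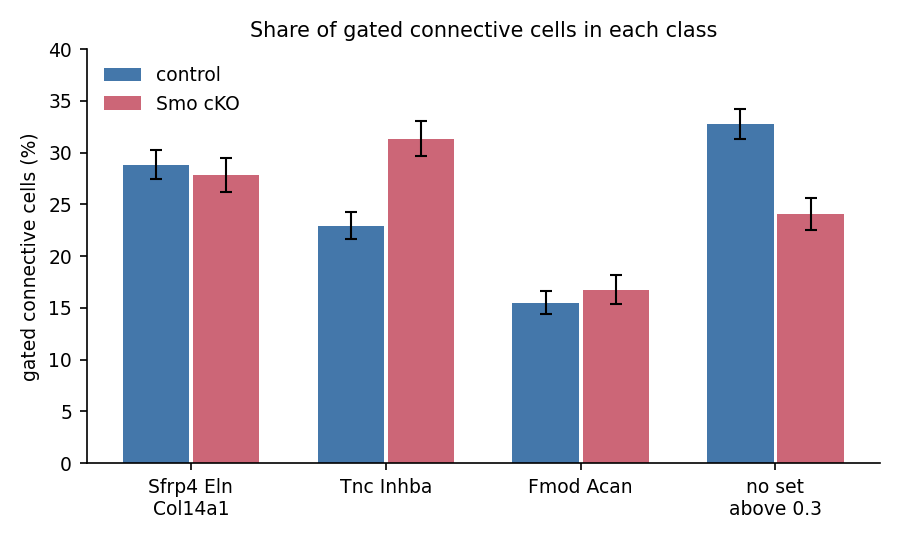
Share of gated connective cells in each of the 4 classes (y axis, percent; x axis, class) for the control (blue) and *Smo* cKO (red) libraries, with 95% exact binomial intervals that cover counting error only. The Sfrp4 Eln Col14a1 bars stand at 28.8% and 27.9% with overlapping intervals (other ways of choosing the cells moved their difference to either side of 0), while the Tnc Inhba bar is higher and the bar without a set above 0.3 lower in *Smo* cKO.

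The 5 genes that chose the cells are given as a description, with no test. *Eln* was the highest of them, with summed UMIs of 1538 CPM (the usual library-size scale) in control fibroblasts and 1713 CPM in those of *Smo* cKO, against 113 and 153 CPM in the other gated connective cells. *Sfrp4* stood at 797 and 858 CPM and *Sfrp1* at 867 and 1000.4 CPM. *Col14a1* was at 1084 and 815 CPM and *Cilp* at 349.6 and 480.4 CPM. The rule genes therefore did not have the same weight in both libraries: *Col14a1* was lower in *Smo* cKO (log2 ratio -0.41) and *Cilp* higher (0.46). All 5 genes were detected in 43.1% of control and 58.8% of *Smo* cKO fibroblasts, and 4 of them in 46.4% and 30.8%. Only 2 cells in each library were kept on 2 rule genes, and those had median UMI counts of 1503.5 and 1284.

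The edge of the group was gradual. At scores of 0.3 to 0.35, 56 control and 32 *Smo* cKO cells were kept, with *Eln* at 325 and 696 CPM. At 0.25 to 0.3, 67 control and 29 *Smo* cKO cells were left out, with *Eln* at 327 and 581 CPM. Of the fibroblasts, 11.4% (control) and 10.0% (*Smo* cKO) lay within 0.1 of the cut or of the next set.

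Marker genes are given as a description of the label, since the gates already required collagen UMIs in all classes. Of 10 general fibroblast genes, 10 were at or above 50 CPM, among them the proteoglycans *Dcn* (2586 CPM in control and 2954 CPM in *Smo* cKO cells) and *Lum* (847 and 1040.0 CPM). *Pdgfra*, a growth factor receptor of most fibroblasts, stood at 193 and 177 CPM. The 10 genes summed to 7992 and 8953 CPM, against 5103 and 5321 CPM in the other gated connective cells. At least 2-fold higher than in those cells were 3 of the 10 (*Dcn*, *Lum* and *Fbln1*). Most genes of the neighbouring skeletal lineages were low. Of the 7 cartilage genes, *Matn1* had 0 UMIs in both libraries and *Col2a1* had 0 in the control and 3 in *Smo* cKO, while *Sox9*, the transcription factor of the cartilage lineage, stood at 27.4 and 37.4 CPM and was detected in 16.3% and 22.7% of the fibroblasts. The 7 osteoblast genes summed to 4.00 and 6.91 CPM, led by *Ibsp* at 1.52 and 1.97 CPM. The 5 tendon genes summed to 138 and 298 CPM, led by *Fibin* at 91.8 and 217 CPM, against 299 and 582 CPM in the other gated connective cells.

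Beyond the rule genes, levels were compared with those in the other gated connective cells. Of 2448 genes at or above 50 CPM in both libraries in either group, 87 (3.55%) were higher in the fibroblasts by 2-fold or more in both libraries and 59 (2.41%) were lower. Because the cells were chosen from the same transcriptomes, these are descriptions and not tests. The highest ratio belonged to *Gm30790*, a long noncoding RNA gene on the minus strand of chr16:76751793-76779092 (mm10), at 63.7 and 55.0 CPM in the fibroblasts against 2.77 and 4.80 CPM in the other connective cells. *Tnxb*, which encodes the matrix glycoprotein tenascin-X, stood at 94.8 and 63.9 CPM against 11.3 and 5.39 CPM. *Fgl2*, a secreted fibrinogen-like protein gene, stood at 94.2 and 97.7 CPM against 14.8 and 14.4 CPM. These 3 genes were also above their level in each of the other classes taken alone. Their smaller log2 ratios were 3.52, 3.065 and 2.67, and in gene-limited cells 3.10, 1.54 and 1.58. The 20 highest genes were of mixed kinds and included *Ctla2a*, a protease inhibitor gene, at 77.2 and 112 CPM against 18.3 and 28.7 CPM, and *Plpp3*, a lipid phosphatase gene, at 344 and 187 CPM against 92.9 and 58.0 CPM (smaller log2 ratio 0.95 in gene-limited cells). Taken class by class, of the 87 higher genes, 83, 60 and 28 were at least 2-fold higher in both libraries against the Tnc Inhba cells, the Fmod Acan cells and the cells without a set above 0.3, and of the 59 lower genes 55, 35 and 8 were lower. Among gene-limited cells, 29 genes were higher and 19 lower by 2-fold or more than in the pooled other cells.

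Elastic fibre genes other than *Eln* were mixed. Of 21 listed genes of elastic fibres and microfibrils, 17 could be compared between cell groups. In the fibroblasts of both libraries 6 were at least 2-fold higher than in the pooled other connective cells, against 3.55% of all genes compared. They were *Mfap4* (669 and 865 CPM against 253 and 323 CPM), *Mfap2*, *Fbln1*, *Fbln5*, *Ltbp1* and *Ltbp4*, which encode microfibril proteins, fibulins that bind tropoelastin, and proteins that hold latent TGF-beta in the matrix. The crosslinking enzyme *Lox* stood at 623 and 616 CPM, near its level in the other cells, and its relative *Loxl3* was at least 2-fold lower. *Fbn1*, the fibrillin of the microfibril core, stood at 806 and 727 CPM and was within 2-fold of the other cells. Among gene-limited cells *Ltbp1* alone of the 6 was 2-fold higher, with a smaller log2 ratio of 1.31, while the others lay between 0.29 (*Fbln1*) and 0.98 (*Ltbp4*) and *Loxl3* was at -0.52.

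Secreted regulators were compared list by list with the pooled other connective cells, not with each class alone. Over all genes compared, 3.55% were at least 2-fold higher in both libraries and 2.41% were lower. Of 30 Wnt pathway genes, 2 outside the rule reached 50 CPM in both libraries (*Sfrp2* and *Dkk3*), and neither was higher or lower by 2-fold in both. *Wnt4*, a Wnt ligand, and *Dkk2*, a Wnt antagonist, fell short of 50 CPM in 1 library each, with *Wnt4* at 45.6 and 75.6 CPM against 8.93 and 9.78 CPM in the other connective cells and *Dkk2* at 73.2 and 46.5 CPM against 18.1 and 16.3 CPM. Of 6 genes of the IGF list that could be compared, 2 were at least 2-fold higher. They were *Igf1*, the growth factor, at 694 and 785 CPM against 265 and 248 CPM, and its binding protein gene *Igfbp5*, at 132 and 283 CPM against 50.1 and 75.8 CPM. In gene-limited cells their smaller log2 ratios were 0.37 and 1.40. Of 12 BMP and TGF-beta genes, 3 were at least 2-fold higher (*Gdf10*, *Bmper* and *Fst*). *Gdf10*, a TGF-beta family ligand, stood at 76.2 and 91.3 CPM against 19.0 and 11.9 CPM, and in gene-limited cells the smaller log2 ratios of the 3 genes were 0.81, 0.34 and 1.06. *Gas1*, a cell surface co-receptor for Hh ligands, was the single gene of 18 in the Hh list at or above 50 CPM, at 217 and 173 CPM against 88.3 and 49.2 CPM (0.52 in gene-limited cells).

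Of 6 acute phase and complement genes that could be compared, 5 were at least 2-fold higher than in the pooled other connective cells of both libraries: *C3*, the central complement component, *C1s1*, a protease of the classical pathway, *Serping1*, its inhibitor, *Lbp*, which binds bacterial lipopolysaccharide, and *Ptx3*, a secreted pattern recognition protein. Over all genes compared, 3.55% were at least 2-fold higher. *Serping1* was the most abundant of the 5, at 904 and 578 CPM against 386 and 225 CPM. *Ptx3* stood at 602 and 322 CPM against 166 and 98.1 CPM. Against the cells without a set above 0.3 alone, *Lbp* was 2-fold higher in both libraries (log2 ratios of 1.45 and 1.38), and the ratios were 0.95 and 1.13 for *C3*, 0.93 and 1.36 for *C1s1*, 0.89 and 0.99 for *Ptx3* and 0.40 and 0.88 for *Serping1*. In gene-limited cells the smaller log2 ratio against the pooled cells was 1.12 for *Lbp* and under 1 for the other 4, at 0.83 for *C1s1*, 0.70 for *C3*, 0.49 for *Ptx3* and 0.24 for *Serping1*.

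None of the 6 genes of the mural list, markers of vessel wall cells, reached 50 CPM. Their sum was 62.6 and 61.6 CPM in the fibroblasts against 33.8 and 25.6 CPM in the other connective cells, and the genes differed in direction. *Abcc9* and *Kcnj8*, which encode the regulatory and pore subunits of an ATP-sensitive potassium channel, stood at 36.9 and 40.5 CPM and at 7.24 and 7.40 CPM in the fibroblasts, against at most 6.47 and 1.27 CPM in the other gated cells. *Cspg4*, a proteoglycan of pericytes, stood at 13.7 and 8.76 CPM against 18.4 and 13.9 CPM. *Notch3*, *Mcam* and *Higd1b* were at or below 3.81 CPM, and cells with *Rgs5* had been gated out. *Wt1*, a transcription factor of mesothelium and some fibroblasts, stood at 62.3 and 63.3 CPM against 23.7 and 19.9 CPM (smaller log2 ratio 0.38 in gene-limited cells), while the epithelial genes *Epcam* and *Krt8* were at or below 0.25 CPM.

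Of 10 genes of the contractile list, 5 were at least 2-fold lower than in the other connective cells in both libraries. The lower ones were *Acta2*, *Tagln*, *Myl9*, *Tpm2* and *Cnn2*, and no gene was higher. The list also holds *Lrrc15* and *Cthrc1*, which are not contractile genes. Over all genes compared, 2.41% were lower and 3.55% higher. *Acta2*, the smooth muscle actin of activated fibroblasts, stood at 143 and 281 CPM against 806 and 1264 CPM. Of the 5, *Acta2* alone stayed past 2-fold under all 15 alternatives that recomputed it. *Tpm2* and *Cnn2* had smaller log2 ratios of -0.84 and -0.92 in gene-limited cells, and *Tagln* and *Myl9* of -0.71 and -0.79 without cells with a macrophage marker UMI. *Ibsp*, a bone sialoprotein gene and the single osteoblast gene that reached 50 CPM in the other cells of both libraries, stood at 1.52 and 1.97 CPM against 60.7 and 109 CPM. *Mmp13*, a collagenase of the cartilage and bone front, stood at 13.6 and 13.8 CPM against 64.6 and 72.7 CPM. No gene of the osteoblast list reached 2 CPM in the fibroblasts.

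**Figure D2:**
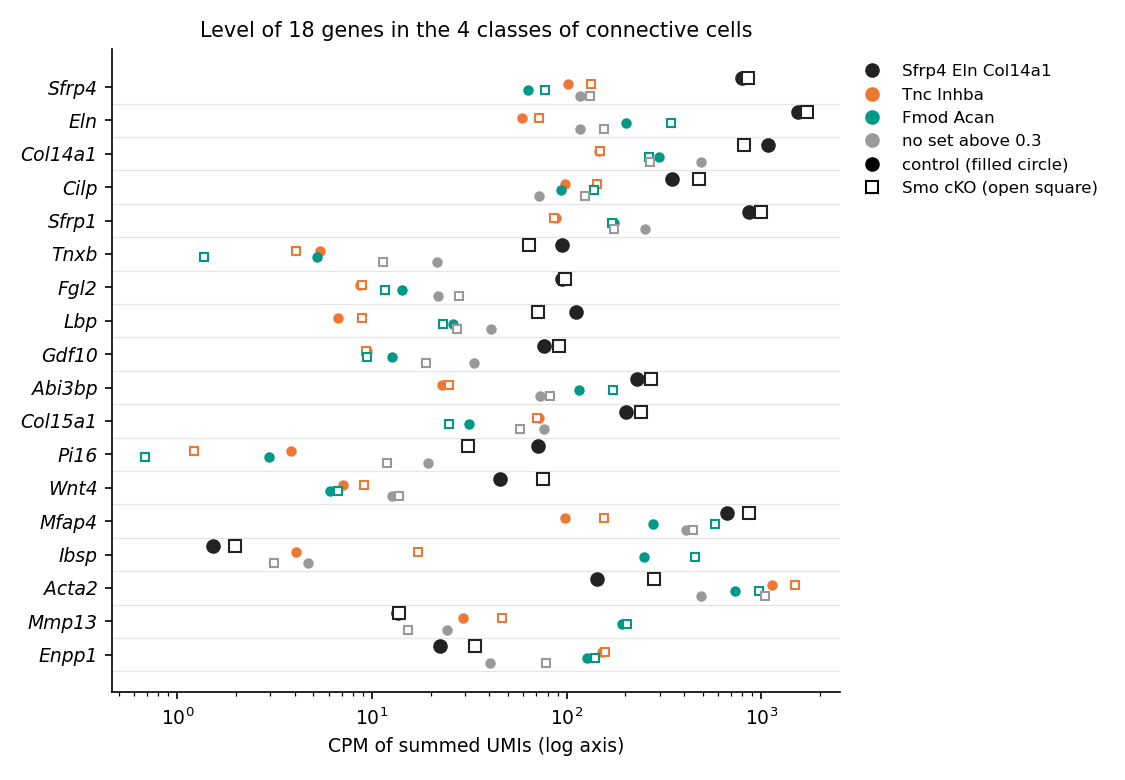
Level of 18 genes (y axis) in the 4 classes of gated connective cells, in CPM of summed UMIs on a log axis (x axis), with filled circles for the control and open squares for the *Smo* cKO library. The black symbols of the Sfrp4 Eln Col14a1 fibroblasts lie to the right of every other class from *Sfrp4* down to *Mfap4*, and to the left of every other class for *Ibsp*, *Acta2*, *Mmp13* and *Enpp1*, in both libraries; the first 5 genes were used to choose the cells.

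Between genotypes, few genes of the fibroblasts passed 2-fold. Of 2462 genes at or above 50 CPM in at least 1 library, 28 (1.14%) were higher by 2-fold or more in *Smo* cKO fibroblasts and 20 (0.812%) were lower. Among gene-limited cells, 55 were higher and 9 lower. The median log2 ratio was 0.12 over all these genes, so that relative to the median gene 23 were higher and 26 lower. The *Smo* transcript itself stood at 19.7 CPM in control and 17.3 CPM in *Smo* cKO fibroblasts (log2 ratio -0.19, interval -0.51 to 0.13). This ratio was 0.02 in gene-limited cells and 0.31 without cells with a macrophage marker UMI. The UMIs of *Smo* do not tell a deleted from an intact allele. The reporter transcript was at 0.95 and 0.99 CPM, seen in 10 and 8 cells, too few to say which fibroblasts belonged to the Sox9+ lineage. *Shh* had 0 UMIs in the fibroblasts of both libraries.

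Acute phase genes were the list with the most lower genes. The lists were written with earlier results of these data known, so this is a description and not a test. Of 10 listed acute phase and complement genes at or above 50 CPM, 5 were at least 2-fold lower in *Smo* cKO and none was higher. Among all genes, 0.812% were lower and 1.14% higher. The median log2 ratio of the 10 was -1.11 against 0.12 for all genes. *Serpina3n*, a secreted inhibitor of serine proteases, stood at 85.5 CPM (control) and 16.4 CPM (*Smo* cKO) (log2 ratio -2.38, interval -2.66 to -2.12). *C3* stood at 448 and 141 CPM (-1.67, -1.76 to -1.57), *Hp*, which binds free hemoglobin, at 94.7 and 32.4 CPM (-1.54), *Steap4*, a metalloreductase, at 87.1 and 30.2 CPM (-1.53), and *Saa3*, a serum amyloid gene, at 358 and 145 CPM (-1.31). The remaining 5 were within 2-fold, 4 of them with log2 ratios below 0 (*Ptx3* -0.90, *C1s1* -0.72, *Lbp* -0.66 and *Serping1* -0.64). In gene-limited fibroblasts, the log2 ratios were -1.71 for *Serpina3n*, -1.27 for *Hp*, -1.26 for *Steap4*, -0.90 for *C3* and -0.05 for *Saa3*. After each cell was thinned to 1000 UMIs, *C3* was detected in 34.7% of control and 13.8% of *Smo* cKO fibroblasts, against 3.35% and 2.09% of *Ptprc*-positive cells with few collagen UMIs. Before thinning these shares were 75.8% and 39.0% against 9.47% and 8.11%, at median depths of 7686 and 8853.5 UMIs against 3355 and 3836.5 UMIs.

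The promoters of 4 of these lower genes are shown because they were the acute phase genes of the group found in the RefSeq promoter set (GRCm38.p6), each with the 250 bases before and 50 bases after the annotated start, read 5′ to 3′ on the gene's own strand. Capitals mark matches, on either strand, to TTGCNNAA, the form bound by C/EBP factors, or to TTCNNNGAA, the form bound by STAT factors. The windows are chr17:57228087-57228386 (minus strand) for *C3*, chr7:46715627-46715926 (minus strand) for *Saa3*, chr5:7960222-7960521 (plus strand) for *Steap4* and chr12:104406458-104406757 (plus strand) for *Serpina3n*.
C3: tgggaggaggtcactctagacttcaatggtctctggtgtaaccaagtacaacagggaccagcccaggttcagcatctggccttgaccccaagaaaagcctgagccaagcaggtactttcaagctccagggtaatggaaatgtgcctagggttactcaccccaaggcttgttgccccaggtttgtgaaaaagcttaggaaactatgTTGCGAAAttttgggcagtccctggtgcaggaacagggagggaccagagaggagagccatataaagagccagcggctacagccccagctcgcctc
Saa3: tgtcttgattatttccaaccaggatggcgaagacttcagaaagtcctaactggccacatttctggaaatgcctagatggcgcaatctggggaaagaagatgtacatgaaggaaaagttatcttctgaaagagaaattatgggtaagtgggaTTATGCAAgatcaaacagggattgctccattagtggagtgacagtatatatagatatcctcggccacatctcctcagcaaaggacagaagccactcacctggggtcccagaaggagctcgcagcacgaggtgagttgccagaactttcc
Steap4: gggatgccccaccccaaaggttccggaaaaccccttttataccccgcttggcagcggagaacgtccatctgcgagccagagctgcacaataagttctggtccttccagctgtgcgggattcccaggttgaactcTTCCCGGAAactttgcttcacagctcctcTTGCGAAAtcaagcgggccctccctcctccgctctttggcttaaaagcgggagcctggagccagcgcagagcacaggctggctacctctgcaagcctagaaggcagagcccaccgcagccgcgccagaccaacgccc
Serpina3n: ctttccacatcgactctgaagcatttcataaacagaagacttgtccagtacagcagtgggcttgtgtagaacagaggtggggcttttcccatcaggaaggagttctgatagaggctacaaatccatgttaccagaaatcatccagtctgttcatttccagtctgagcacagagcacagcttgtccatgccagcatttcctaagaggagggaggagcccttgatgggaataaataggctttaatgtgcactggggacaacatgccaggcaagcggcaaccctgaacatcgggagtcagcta

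*C3* held 1 match to the C/EBP form, starting 45 bases before the start, and *Saa3* held 1, starting 99 bases before it. *Steap4* held 1 match to each form, the STAT form at 116 and the C/EBP form at 87 bases before the start, and *Serpina3n* held neither in this window. One more form, GGCGCC, bound by SMAD factors, was also searched and was in none of these 4 windows. The C/EBP, STAT and SMAD forms were in 10.8%, 8.30% and 11.9% of all 32851 promoters of the same length. Of the 12 genes named as lowest in *Smo* cKO, 7 had a promoter in the set, of which 4 held the C/EBP form (*C3*, *Mmp3*, *Saa3* and *Steap4*), 1 the STAT form and 1 the SMAD form (*Cxcl12*). Of the 12 highest genes, 8 had a promoter, of which 1 held the C/EBP form (*Spp1*), 1 the STAT form (*Bst2*) and 2 the SMAD form (*Fbln7* and *Id2*). Of the 20 genes highest against the other connective cells, 15 had a promoter, of which 3 held the C/EBP form (*C1s1*, *C3* and *Ptx3*), 2 the STAT form and 3 the SMAD form. These matches describe letters in a window and say nothing of binding.

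Adventitial fibroblasts are progenitor-like cells that line vessels and fascia. Of 10 of their marker genes at or above 50 CPM, 3 were at least 2-fold lower and 1 was above 0, with a median log2 ratio of -0.76. Among all genes at or above 50 CPM, 0.812% were at least 2-fold lower and 64.1% were above 0, with a median of 0.12. *Clec3b*, which encodes tetranectin, stood at 217 CPM (control) and 83.4 CPM (*Smo* cKO) (-1.38, -1.51 to -1.26), *Pi16*, a marker of this compartment, at 71.2 and 31.0 CPM (-1.20), and *Ly6c1* at 83.2 and 41.1 CPM (-1.02; *Pi16* -0.24 and *Ly6c1* -0.55 in gene-limited cells). *Dpt*, an extracellular matrix gene of the same list, was at 475 and 502 CPM. *Klf4*, a zinc finger transcription factor, stood at 641 and 278 CPM (-1.20, -1.27 to -1.14). In gene-limited cells the log2 ratios of *Clec3b* and *Klf4* were -0.84 and -0.95, short of 2-fold.

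Chemokines split by gene. *Cxcl12*, the stromal chemokine that draws cells bearing CXCR4, stood at 231 CPM in control and 88.1 CPM in *Smo* cKO fibroblasts (-1.39, -1.51 to -1.27), and *Cxcl5*, which attracts neutrophils, at 312 and 115 CPM (-1.44, -1.54 to -1.33). In gene-limited cells these ratios were -1.49 and -0.77. In the Tnc Inhba cells, the Fmod Acan cells and the cells without a set above 0.3 the log2 ratios of *Cxcl12* were 0.24, -0.52 and -1.26, and those of *Cxcl5* were 0.38, -0.97 and -0.35. *Il1rl1*, the receptor of interleukin-33, stood at 165 and 81.4 CPM (-1.02; -0.55 in gene-limited cells). The far more abundant *Cxcl1* (2376 and 2422 CPM), *Ccl7* (1978 and 2199 CPM) and *Ccl2* (2266 and 3134 CPM) were within 2-fold. Of 16 listed chemokine and cytokine genes at or above 50 CPM, 3 were at least 2-fold lower and none was higher. Among all genes at or above 50 CPM, 0.812% were lower and 1.14% higher. After thinning, *Cxcl12* was detected in 16.0% of control and 5.38% of *Smo* cKO fibroblasts, against 1.15% and 1.00% of *Ptprc*-positive cells. The unthinned shares were 48.0% and 27.0% against 4.88% and 4.48%. Thinned shares in the other connective classes were 7.76% and 10.5% (Tnc Inhba cells) and 6.96% and 6.71% (Fmod Acan cells). In the cells without a set above 0.3 they were 24.2% and 14.0%, above the fibroblasts in both libraries.

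The *Id* genes, which encode inhibitors of basic helix-loop-helix factors and are direct targets of BMP signaling in many cells, were higher in *Smo* cKO. *Id1* stood at 17.5 and 67.7 CPM (1.95, 1.71 to 2.20), *Id3* at 183 and 598 CPM (1.71, 1.63 to 1.79) and *Id2* at 47.4 and 119 CPM (1.33, 1.17 to 1.49). In gene-limited cells the ratios were 1.29, 1.25 and 0.90. *Fst*, a secreted antagonist of activins and some BMPs, was lower at 131 and 50.1 CPM (-1.38, -1.55 to -1.22; -0.79 in gene-limited cells), and *Tgfb3*, a TGF-beta ligand, was higher at 63.1 and 138 CPM (1.13; 1.27 in those cells). Of 12 genes of the BMP and TGF-beta list at or above 50 CPM, leaving out the rule gene *Inhba*, 4 were at least 2-fold higher and 1 lower. Their median log2 ratio was 0.0081 (0.26 with *Inhba*). Among all genes at or above 50 CPM, 1.14% were higher and 0.812% lower, with a median of 0.12. After thinning, *Id3* was detected in 10.5% of control and 32.0% of *Smo* cKO fibroblasts, against 4.50% and 8.35% of *Ptprc*-positive cells. *Id3* was thus higher in that reference too, and it was also higher in the other connective classes. Its thinned shares were 12.9% and 23.9% in the Tnc Inhba cells and 38.7% and 48.0% in the Fmod Acan cells. They were 13.2% and 34.4% in the cells without a set above 0.3.

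All 10 genes of the contractile list at or above 50 CPM had a log2 ratio above 0, with a median of 0.75. The list also holds *Lrrc15* and *Cthrc1* (765 and 1285 CPM), which are genes of activated fibroblasts and not contractile genes. Among all genes of the fibroblasts at or above 50 CPM, 64.1% were above 0, with a median of 0.12. At least 2-fold higher were 1.14% of all genes, and 0.812% were lower. Of this list, *Lrrc15* alone passed 2-fold (62.0 and 132 CPM, 1.09, and 0.55 in gene-limited cells), so no contractile gene in the strict sense did. *Acta2* stood at 143 and 281 CPM (0.97, 0.88 to 1.07) and *Tagln*, an actin-binding protein gene, at 131 and 245.0 CPM (0.90). The summed RNA of 9 skeletal muscle genes moved with them, at 41.4 and 75.7 CPM (0.87, 0.69 to 1.05), as did that of 6 endothelial genes, at 17.2 and 31.5 CPM (0.87, 0.59 to 1.15), and their part in the contractile ratios was not tested. Of 20 matricellular genes at or above 50 CPM that the rule did not use, 3 were at least 2-fold higher and none lower, with a median log2 ratio of 0.21 against 0.12 for all genes. They were *Cyr61* (162 and 377 CPM, 1.22; 0.90 in gene-limited cells), *Wisp2* (87.2 and 190.5 CPM, 1.13; 1.93 in those cells) and *Spp1*, whose values are given with those of macrophage RNA. Of 20 matrix enzyme and inhibitor genes that the rule did not use, 1 was at least 2-fold higher and 2 were lower. The higher one was the protease gene *Htra1*, at 110.0 and 262 CPM (1.25; 1.26 in those cells), and the lower ones were *Mmp3* and *Adamts5*, an aggrecanase, at 70.4 and 34.7 CPM (-1.02; -0.43 in those cells). *Fbln7*, a fibulin, stood at 55.9 and 134 CPM (1.26, 1.11 to 1.41), and *Igfbp5*, an IGF binding protein, at 132 and 283 CPM (1.10, and 1.64 in gene-limited cells). *Igfbp5* stayed past 2-fold in 11 of 17 alternatives. At scores of 0.3 to 0.6 it stood at 44.0 and 330 CPM. At 0.6 to 1 it stood at 158 and 201 CPM, and above 1 at 193 and 320 CPM. None of 16 elastic fibre genes, 14 collagen genes or 6 small leucine-rich proteoglycan genes at or above 50 CPM differed by 2-fold, with median log2 ratios of 0.05, 0.30 and 0.24. These counts leave out genes that chose the cells (*Eln*, *Loxl2*, *Col14a1*, *Col11a1*, *Col1a1*, *Col1a2*, *Col3a1* and *Fmod*), whose levels the choice partly sets in both libraries.

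Of 26 interferon-stimulated genes, 4 were at or above 50 CPM in the fibroblasts. At least 2-fold higher in *Smo* cKO were 3 of them, with a median log2 ratio of 1.66 over the 4. Among all genes at or above 50 CPM, 1.14% were that much higher, with a median of 0.12. *Isg15*, a ubiquitin-like modifier, stood at 27.5 and 132 CPM in the fibroblasts (2.26, 2.07 to 2.45), *Bst2*, a membrane protein that tethers virus particles, at 81.9 and 269 CPM (1.72) and *Ifi27l2a* at 139 and 422 CPM (1.60). *Ifi27*, the fourth, stood at 107 and 208 CPM (0.95). In the Tnc Inhba cells, the Fmod Acan cells and the cells without a set above 0.3, the log2 ratios were 4.01, 4.15 and 3.89 for *Isg15*, 3.30, 1.80 and 2.31 for *Bst2*, 3.66, 2.56 and 2.80 for *Ifi27l2a* and 0.97, 0.83 and 0.90 for *Ifi27*. Differences between the classes were not tested. *Isg15* in the control was at 27.5 CPM in the fibroblasts and 10.0 CPM in the Tnc Inhba cells, while in *Smo* cKO the levels were 132 and 161 CPM. *Isg15* was also higher in *Ptprc*-positive cells, at 31.9 and 195 CPM.

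Other genes past 2-fold were *Tspan13*, a tetraspanin, at 22.8 and 101 CPM (2.14), and *Hspa1a*, a heat shock gene, at 48.4 and 144 CPM (1.58). *Gm10036*, a processed pseudogene whose reads may be shared with its parent gene, stood at 17.8 and 75.5 CPM (2.08). In gene-limited cells the ratios of these 3 genes were 1.51, 0.85 and 1.73. *Mmp3*, a stromelysin, stood at 59.4 and 24.3 CPM (-1.29) and *Adgrd1*, an adhesion receptor, at 59.1 and 24.2 CPM (-1.29). Their ratios were -0.40 and -0.86 in gene-limited cells, and -0.53 and -0.996 without fibroblasts with a macrophage marker UMI. The highest ratio among the named genes belonged to *Ccl4*, a macrophage chemokine, at 5.52 and 54.9 CPM (3.31, 2.92 to 3.73). Its UMIs came from 37 control and 59 *Smo* cKO fibroblasts, and it stood at 388 and 740 CPM in *Ptprc*-positive cells. Without fibroblasts that held a macrophage marker UMI its log2 ratio was 1.36, and in gene-limited cells it was 0.14. *Spp1*, osteopontin, stood at 48.3 and 116 CPM (1.26) and at 838 and 1993 CPM in *Ptprc*-positive cells. Its ratio was 0.66 without cells with a macrophage marker UMI and -0.0597 in gene-limited cells.

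**Figure D3:**
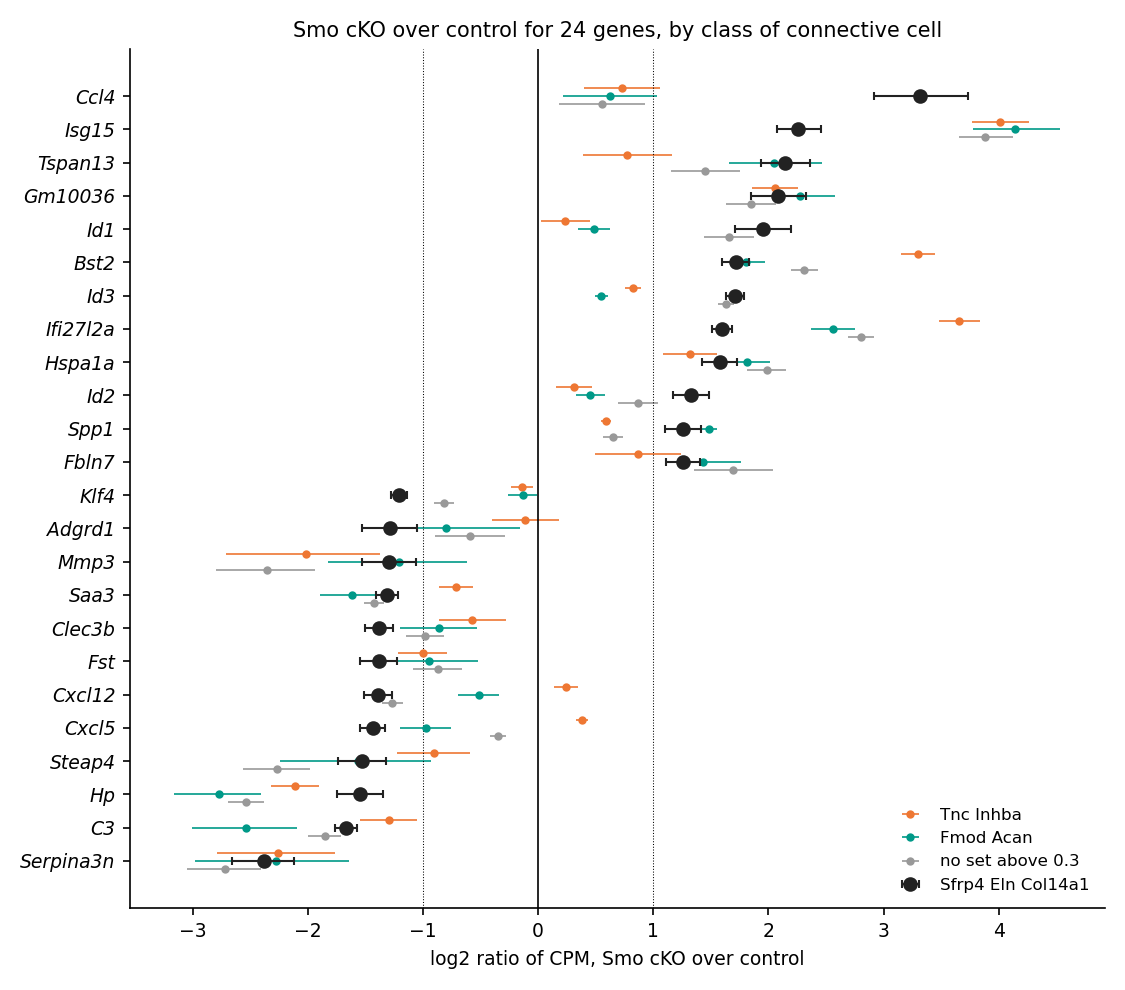
Log2 ratio of CPM, *Smo* cKO over control (x axis), for the 24 named genes (y axis) in the Sfrp4 Eln Col14a1 fibroblasts (black) and the other 3 classes, with 95% counting intervals and dotted lines at 2-fold. The black points of *Klf4* to *Serpina3n* all lie left of -1, while for *Cxcl12* and *Cxcl5* the Tnc Inhba points lie to the right of 0.

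The same genotype comparison was made in the other classes of the same 2 libraries. Of the 28 higher genes, 21 were at or above 50 CPM in the Tnc Inhba cells, 22 in the Fmod Acan cells and 24 in the cells without a set above 0.3, and 11, 10 and 15 of these were at least 2-fold higher there. Over all genes at or above 50 CPM, 1.22%, 0.934% and 1.65% were 2-fold higher in these classes. All 28 had log2 ratios above 0 in each class, as had 56.2%, 54.5% and 65.8% of all genes. Of the 20 lower genes, 9, 8 and 16 were at or above 50 CPM, and 1, 3 and 7 of these were at least 2-fold lower, against 0.0786%, 0.272% and 0.944% of all genes. Log2 ratios below 0 were found for 15, 18 and 19 of the 20, and for 43.8%, 45.5% and 34.2% of all genes. *Serpina3n* stood at log2 ratios of -2.26, -2.27 and -2.72 in these classes and *C3* at -1.30, -2.53 and -1.85. *Id1* stood at 0.24, 0.49 and 1.66 and *Klf4* at -0.14, -0.13 and -0.82, so that both were closest to the fibroblasts in the cells without a set above 0.3. No test of these differences between classes was possible with 1 library per genotype.

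Within the fibroblasts, levels also ran along the score. *Cxcl12* in the control was 365 CPM in 383 cells with scores of 0.3 to 0.6, 218 CPM in 449 cells with scores of 0.6 to 1 and 102 CPM in 400 cells above 1, while in *Smo* cKO it was 94.7, 102 and 70.3 CPM in 222, 263 and 333 cells. The genotype gap of *Cxcl12* was therefore widest at the low end of the score. *Pi16* ran the other way, from 42.0 through 72.4 to 101 CPM in the control and from 20.1 through 25.7 to 44.0 CPM in *Smo* cKO. *C3* went from 361 to 541 CPM in the control and from 68.1 to 230.2 CPM in *Smo* cKO. *Isg15* went from 17.3 CPM at scores of 0.6 to 1 to 56.8 CPM above 1 in the control, and over the 3 ranges it was at 169, 132 and 103.5 CPM in *Smo* cKO. *Acta2* was at 189, 141 and 97.2 CPM in the control and at 459.8, 280.1 and 145 CPM in *Smo* cKO. The most strongly scoring fibroblasts were thus the richest in *Pi16* and *C3* and the poorest in *Cxcl12* and *Acta2* in both libraries.

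**Figure D4:**
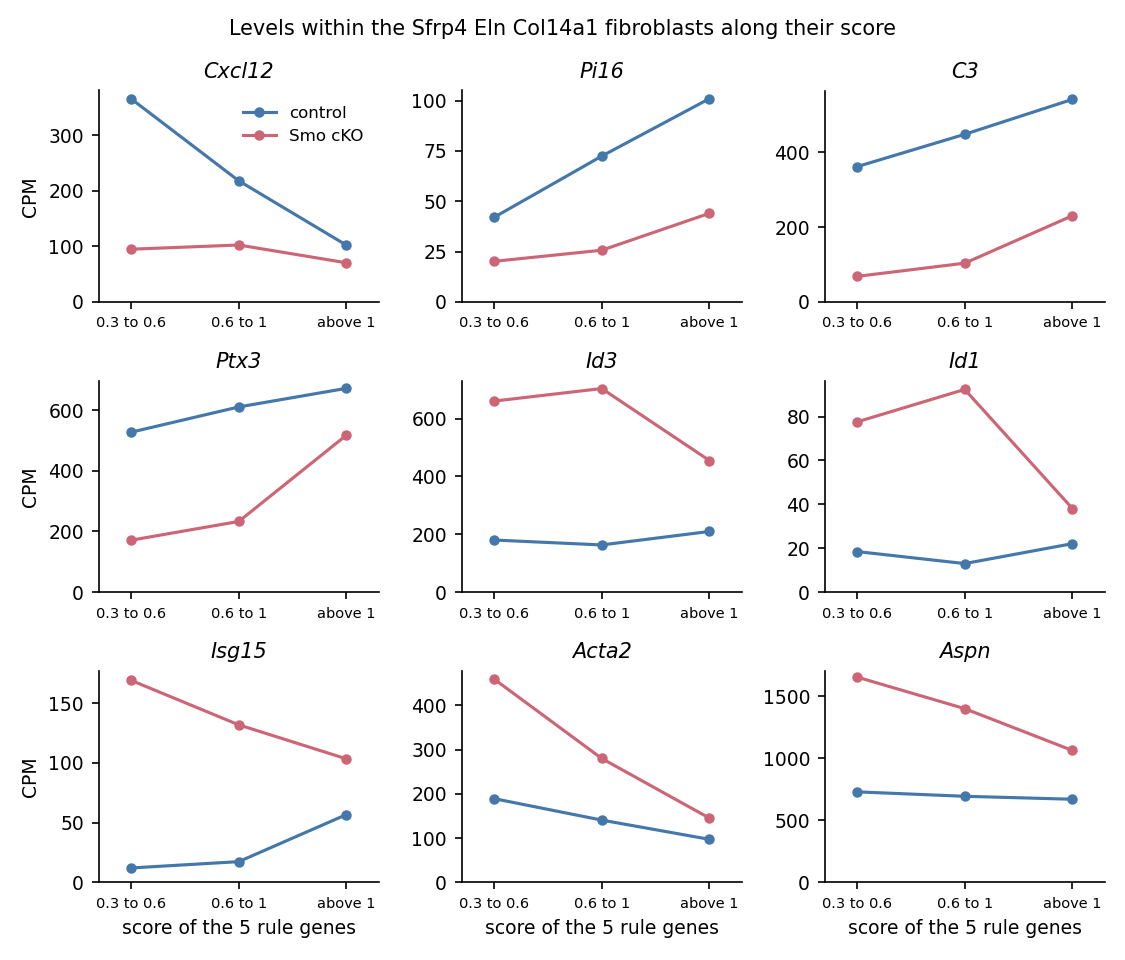
CPM of 9 genes (y axes) in the Sfrp4 Eln Col14a1 fibroblasts of 3 score ranges (x axes) in the control (blue) and *Smo* cKO (red) libraries; each point is the summed UMIs of 222 to 449 cells of 1 library. *Cxcl12* goes from 365 to 102 CPM along the score in the control and lies between 70.3 and 102 CPM in *Smo* cKO, while *Pi16* and *C3* are higher at high scores in both.

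RNA of other cell types was measured in the same fibroblasts. Hemoglobin and erythroid RNA was the most abundant, with the 5 listed genes summing to 2048 CPM (control) and 3549 CPM (*Smo* cKO), led by *Hbb-bs* at 1039 and 1649.7 CPM. The sum was 1939 and 2101 CPM in the other connective cells. The 10 macrophage genes summed to 214 and 309 CPM, led by *Lyz2* at 73.1 and 110 CPM, against 8909 and 13083 CPM in *Ptprc*-positive cells, and the 6 neutrophil genes to 64.3 and 98.3 CPM, led by *S100a8*. At least 1 UMI of *Lyz2*, *C1qa*, *C1qb*, *C1qc*, *Tyrobp* or *Fcer1g* was present in 612 of 1232 control and 536 of 818 *Smo* cKO fibroblasts. A deeper cell is likelier to hold such a UMI, and *Smo* cKO fibroblasts were deeper (median 8853.5 UMIs against 7686). Leaving these cells out may thus also select on depth, and the part of depth was not tested. Without these cells, 37 genes were at least 2-fold higher and 18 lower in *Smo* cKO. The log2 ratios of *Serpina3n*, *Cxcl12*, *Id3* and *Isg15* were then -2.46, -1.62, 1.68 and 2.82. Of the genes given above as past 2-fold between genotypes, *Pi16* (-0.78), *Ly6c1* (-0.74), *Il1rl1* (-0.90), *Tgfb3* (0.99), *Mmp3*, *Adgrd1* and *Spp1* were within it without those cells. Of the tendon genes, *Fibin* had a log2 ratio of 1.24, and *Scx*, a tendon transcription factor, stood at 17.9 and 48.6 CPM. The part of these other RNAs in the remaining differences was not tested.

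**Figure D5:**
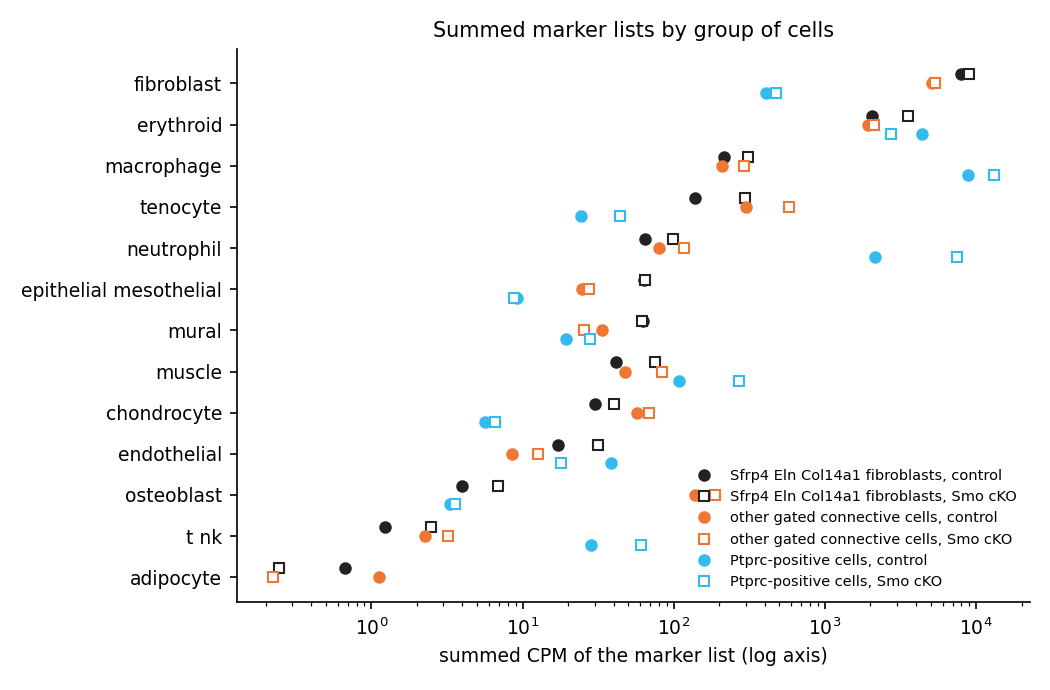
Summed CPM (x axis, log) of 13 marker lists (y axis) in the Sfrp4 Eln Col14a1 fibroblasts (black), the other gated connective cells (orange) and *Ptprc*-positive cells (blue), with filled circles for the control and open squares for the *Smo* cKO library; sums of 0 are not drawn. The fibroblast list is the highest in black at 7992 and 8953 CPM, and the macrophage sum of 214 and 309 CPM lies far below the 8909 and 13083 CPM of *Ptprc*-positive cells.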

How the data were processed

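Calluses were digested, depleted of dead cells and run on the 10x Chromium platform. The authors deposited 1 matrix of raw UMI counts per genotype, and the submitters' processing notes name Cell Ranger 3.0.2 and mm10. These counts were summed over the cells of a class in each library and divided by their total (CPM). Genes at or above 50 CPM were compared, 2-fold was the threshold, and ratios carry exact Poisson intervals, shares those of Clopper and Pearson, and share differences those of Newcombe, all at 95%. No doublet caller was run. The authors' own filter on cells with more than 2000 detected genes was not applied, and was tried as an alternative. The members, gene lists and named genes were chosen with earlier results of these data known. Genes were named as the 20 highest and 10 lowest against other connective cells, the 12 highest and 12 lowest between genotypes (without *Xist*, Y-linked, mitochondrial, ribosomal protein, hemoglobin and immunoglobulin genes), or from the lists. Other groups of cells were gated in the same way, and *Ptprc*-positive cells had at least 1 *Ptprc* UMI and under 1% collagen UMIs (1045 control, 1294 *Smo* cKO). On simulated counts for the genotype comparison, 200 of 200 genes changed 4-fold among 2290 genes were called, and 0 of 2090 unchanged genes. The changed genes were drawn from those at or above 100 CPM, and changes nearer 2-fold were not tried. These counts carried counting error alone, so this says nothing of spread between animals or libraries. Python 3.11.15, numpy 2.4.6, scipy 1.17.1, pandas 2.3.3 and, for TMM scaling, edgeR 4.0.16 were used. Gene positions come from GENCODE on GRCm38 (mm10), with 481 of 482 identifiers matched, and promoters from RefSeq. One marker list is not reported here.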

Additional observations from a re-analysis of the deposited data

Results flagged for a closer look

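The genotype ratio of both *Cxcl12* and *Cxcl5* pointed one way in the Sfrp4 Eln Col14a1 fibroblasts and the other way in the Tnc Inhba cells of the same libraries. *Cxcl12* had a log2 ratio of -1.39 in the fibroblasts (231 CPM in the control and 88.1 CPM in *Smo* cKO) and 0.24 in the Tnc Inhba cells (96.5 and 114 CPM). *Cxcl5* had a log2 ratio of -1.44 in the fibroblasts (312 and 115 CPM) and 0.38 in the Tnc Inhba cells (382 and 497 CPM). In the Fmod Acan cells and the cells without a set above 0.3 the ratios pointed as in the fibroblasts, at -0.52 and -1.26 for *Cxcl12* and at -0.97 and -0.35 for *Cxcl5*. The intervals of all 8 ratios exclude 0 for counting error, and the difference between the classes was not tested, since each genotype had 1 library.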

How the results depend on the processing

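No paired analysis was possible because each genotype had 1 library, and for the same reason no replicate could be left out and no p-value was computed. The share difference of -0.99 points became -3.26 at a score cut of 0.15, -5.99 in cells with at most 2000 detected genes, 2.45 without *Col14a1* in the set, -5.09 without *Cilp*, and 4.11 without cells with a macrophage marker UMI (an alternative chosen after seeing the data, like that on shared barcodes). In cells with at most 2000 detected genes (359 control and 157 *Smo* cKO fibroblasts), 55 genes were higher and 9 lower in *Smo* cKO, 29 higher and 19 lower than in other connective cells, and *Spp1* had a log2 ratio of -0.0597. Scores from 1000 thinned UMIs gave 54 and 24 genes higher and lower than in other cells. A floor of 20 CPM gave 60 higher and 40 lower genes in *Smo* cKO and 154 and 98 against other cells. A floor of 100 CPM gave 21 and 9, and 53 and 37. No floor gave 627 and 398, and 526 and 581. TMM scaling gave 23 higher and 25 lower. Of 24 named genes, 12 stayed past 2-fold under every alternative that recomputed them, and 23 kept their direction. Of 30 genes named against other connective cells, 15 stayed past 2-fold and 30 kept their direction. Of the other list genes past 2-fold, 2 of 11 between genotypes and 5 of 33 against other cells stayed so, and all kept their direction. The cause of these shifts was not tested. Genes of few UMIs and differences under 2-fold are limited by depth, and by the single library.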
